A study of Mus musculus with 20 samples.

Results

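Cyclins and interphase cell-cycle control are followed here through 10 genes, taken by their mouse symbols from the 34937 genes counted in each embryo: Ccna2, Ccnb1, Ccnb2, Ccnd1, Ccnd2, Ccnd3, Ccne1, Ccne2, Cdk2 and Cdkn1b. All 10 were listed in every count table. RNA was measured in single mouse embryos at the 8-cell stage (8C), collected at E2.5. The question was how these genes differed at 8C between embryos whose mothers lacked the histone methyltransferase G9a in the oocyte and embryos whose mothers had it. G9a is encoded by Ehmt2 and, together with its partner GLP, places dimethylation on lysine 9 of histone H3, a mark of silent euchromatin.

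There were 9 control embryos (Ehmt2Cntr, maternal WT) and 10 maternally depleted embryos (Ehmt2Mat, maternal KO). Ehmt2Cntr mothers were Ehmt2F/+ and Ehmt2Mat mothers were Ehmt2F/-. Both carried Zp3-Cre, which recombines the floxed allele in growing oocytes, so control oocytes also lost a floxed copy and kept 1 wild-type copy. Fathers were Ehmt2+/-. The embryos' own (zygotic) genotype was +/- in 3 controls and +/+ in 6, and it was -/- in 5 Ehmt2Mat embryos and +/- in the other 5. The groups thus also differed in zygotic genotype, which the main comparison does not separate from maternal loss. All embryos had a mixed background, came from natural matings and were picked as morphologically normal, with the zona pellucida removed. A control embryo numbered 4 was not analysed here. The labels name neither mother nor litter, so an effect of either and the maternal genotype cannot be told apart, and p-values treat embryos as independent. In whole embryos, a change in the share of cells that hold a transcript and a change in every cell cannot be told apart either. The study reports a mild developmental delay after maternal loss at this age. It also describes the sequenced Ehmt2Mat embryos as differing from controls in developmental progress, although they looked alike. A difference in developmental progress and the maternal genotype therefore cannot be told apart here.

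Cyclins are the regulatory subunits of the cyclin-dependent kinases (CDKs). D-type cyclins act in G1 with CDK4 and CDK6 on the retinoblastoma protein and so release E2F factors, E-type cyclins act with CDK2 at the entry into S phase, cyclin A2 serves CDK2 in S phase and CDK1 later, and B-type cyclins bring CDK1 into mitosis. Cdkn1b encodes p27, an inhibitor that binds cyclin-CDK2 complexes. Cleavage divisions run without growth of the embryo, first on maternal stores and then on transcripts of the embryo's own genome.

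Total counts were between 12985149 and 30053248 in controls and between 8231646 and 30602434 in Ehmt2Mat embryos. At these depths 3 counts were worth between 0.098 and 0.364 CPM (counts relative to the embryo's total). Control embryo 10 stood apart, with a count on 16142 genes against 12068 to 13230 in the other controls, and Ehmt2Mat embryos had 12754 to 16412. Embryos were read as male by Y-linked genes in 5 of 9 controls and 9 of 10 Ehmt2Mat. All 5 markers of the 8-cell embryo were present in both groups. Within that list Sall4 and Klf5 were lower in Ehmt2Mat (log2 fold changes -1.07 and -1.49, edgeR adjusted p = 0.00158 and 4.9e-04). Tfap2c was higher (0.75, edgeR adjusted p = 0.0183). Tdgf1 at -1.44 and Pou5f1 at -0.18 did not pass (edgeR adjusted p = 0.0524 and 0.846). All 7 cumulus or granulosa markers had a median at or near 0 in both groups and summed to at most 4.97 CPM in a control and 38.2 CPM in an Ehmt2Mat embryo, and the 5 blood markers summed to at most 8.16 CPM in any embryo. The 6 oocyte markers summed to 42.1 to 251 CPM in controls and 70.0 to 130 CPM in Ehmt2Mat. The 5 oviduct markers summed to 6.24 to 438 CPM in controls and 33.0 to 2934 CPM in Ehmt2Mat. Among them Ovgp1 had a median of 2.45 CPM in controls against 103 CPM in Ehmt2Mat (edgeR adjusted p = 0.0926), with highest values of 371 and 2798 CPM. Epcam had medians of 38.6 and 33.0 CPM and Krt8 of 3.48 and 3.99 CPM. Their log2 fold changes were -0.48 and -0.33 (edgeR adjusted p = 0.537 and 0.888). Foxj1 and Pax8 of the same list were below 2 CPM at the median in both groups. The part of these embryo features in the results on cyclins was not tested, apart from the fits with sex and with the number of detected genes given with the called members.

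Reads on Ehmt2 itself were lower on average in Ehmt2Mat, at 102 ± 32.7 CPM (SD, n = 10) against 141 ± 59.7 CPM (SD, n = 9), and did not pass the test (edgeR log2 fold change -0.47, adjusted p = 0.233). The mean was 83.1 ± 20.4 CPM (SD, n = 5) in the -/- embryos and 121 ± 33.0 CPM (SD, n = 5) in the +/- embryos of Ehmt2Mat. The counts cover all exons of the gene, and the exons removed from the conditional allele are not given in the sources used here, so this value does not check the labels.

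Cdk2 rose, and the cyclins Ccne1 and Ccnd3 fell, in Ehmt2Mat embryos. These were the only members past the threshold in the main test, 3 of the 9 that could be tested, against 9.35% of all 11754 tested genes in either direction. By direction, 1 of 9 was higher against 4.37% of tested genes and 2 of 9 were lower against 4.98%. The median log2 fold change over the 9 members was -0.47, and over all tested genes it was -0.04. No member had groups without any overlap in CPM, which 61 tested genes had (0.519%, of which 0.34% higher and 0.179% lower in Ehmt2Mat).

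**Figure D1:**
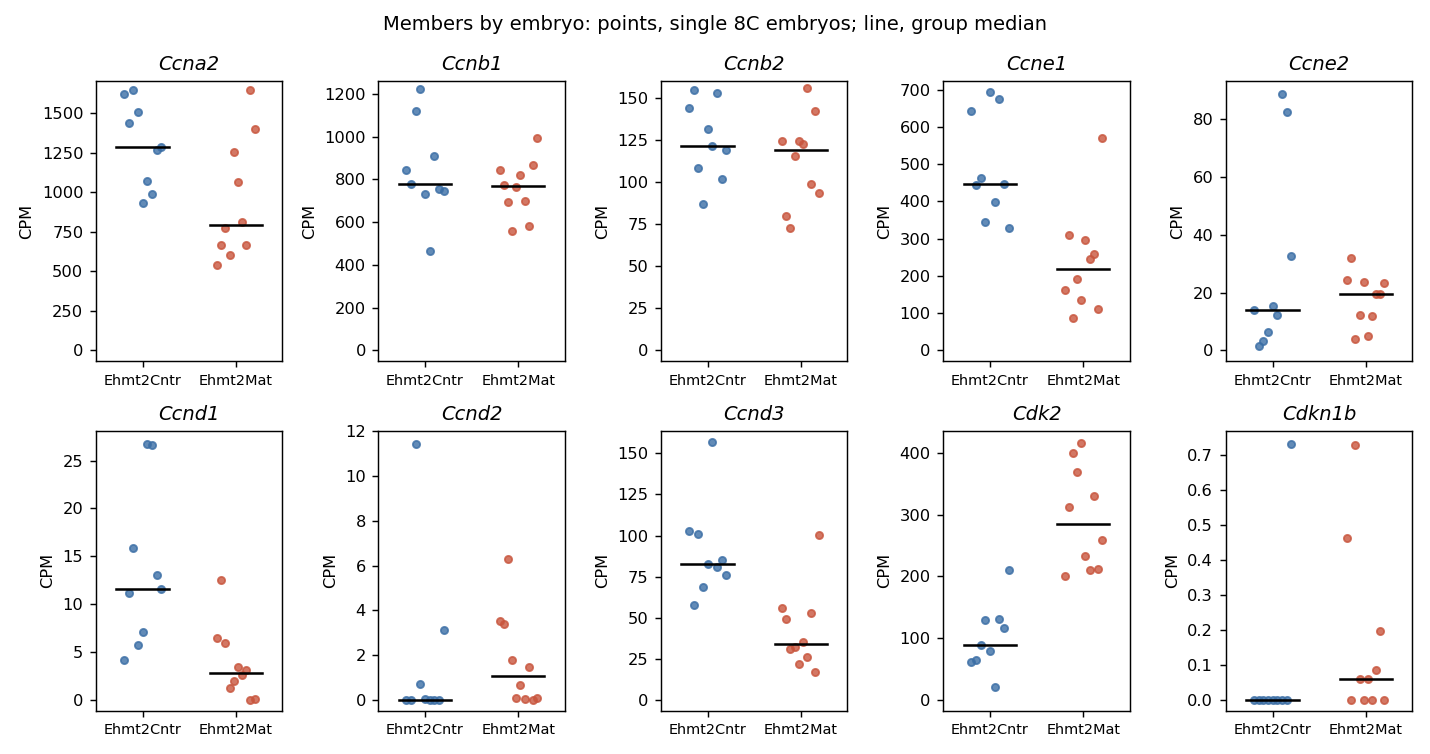
CPM of each member (y axis, TMM-scaled, from 0) in the 9 Ehmt2Cntr and 10 Ehmt2Mat embryos, with points for single embryos and a line for the group median. Cdk2 lies higher in Ehmt2Mat with 1 control among the mutants, Ccne1 and Ccnd3 lie lower with 1 mutant among the controls, and Ccnd2 and Cdkn1b lie near 0 in both groups.

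Cdk2 encodes the kinase partner of E-type and A-type cyclins. It lay between 20.6 and 210 CPM (median 88.6) in controls and between 200 and 416 CPM (median 286) in Ehmt2Mat. Of the 10 Ehmt2Mat embryos, 9 were above every control, and the groups overlapped only through control embryo 10 at 210 CPM and Ehmt2Mat embryo 1 at 200 CPM. The control mean was 100 ± 54.5 CPM (SD, n = 9) and the Ehmt2Mat mean 294 ± 82.1 CPM (SD, n = 10). This is a log2 fold change of 1.55 ± 0.29 (SE), or 2.93-fold, with a 95% interval from 0.96 to 2.14 (edgeR adjusted p = 0.00177). Without control embryo 10, which has the highest Cdk2 of the controls, the log2 fold change was 1.76 (edgeR adjusted p = 3.7e-04). Cdk2 lies at chr10:128697939-128705051 of GRCm38, on the minus strand, and its exons overlap those of no other gene.

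Ccne1, the gene of cyclin E1, moved the other way. It lay between 329 and 693 CPM (median 447) in controls and between 86.1 and 570 CPM (median 218) in Ehmt2Mat. All but 1 of the Ehmt2Mat embryos were below every control, and the exception was Ehmt2Mat embryo 10 at 570 CPM. The control mean was 492.9 ± 141 CPM (SD, n = 9) and the Ehmt2Mat mean 236 ± 140 CPM (SD, n = 10). This is a log2 fold change of -1.06 ± 0.27 (SE) with a 95% interval from -1.63 to -0.49 (edgeR adjusted p = 0.0161). Ccne1 lies at chr7:38097984-38107534 on the minus strand, and its exons overlap those of no other gene.

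Ccnd3, the gene of cyclin D3, fell by a similar factor. It lay between 58.1 and 157 CPM (median 82.7) in controls and between 17.2 and 101 CPM (median 33.8) in Ehmt2Mat. Again 9 of 10 Ehmt2Mat embryos were below every control, with Ehmt2Mat embryo 10 at 101 CPM as the exception. The control mean was 90.2 ± 28.7 CPM (SD, n = 9) and the Ehmt2Mat mean 42.3 ± 24.3 CPM (SD, n = 10). This is a log2 fold change of -1.09 ± 0.28 (SE) with a 95% interval from -1.68 to -0.51 (edgeR adjusted p = 0.0159). Ccnd3 lies at chr17:47505051-47599691 on the plus strand. Its last 361 exon bases are shared with Bysl on the other strand, and a read there was counted for both genes. Bysl had more reads than Ccnd3 in all 19 embryos, so the Ccnd3 reads that lie outside the shared bases could not be bounded from the counts. Bysl itself had a log2 fold change of 0.37 (edgeR adjusted p = 0.216), opposite in sign to Ccnd3.

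The same embryo, Ehmt2Mat 10, was thus the exception for both cyclins, and it also had the fewest genes with a count in its group. Without it the log2 fold change was -1.30 for Ccne1 (edgeR adjusted p = 0.0014) and -1.32 for Ccnd3 (edgeR adjusted p = 0.0017). With the number of detected genes as a covariate, a setting chosen after seeing the data, the call held for Cdk2 at a log2 fold change of 1.36 (edgeR adjusted p = 0.0164) and was lost for Ccne1 at -0.94 (edgeR adjusted p = 0.106) and for Ccnd3 at -1.003 (edgeR adjusted p = 0.0892), while the calls over all genes went from 1099 to 382. With sex as a covariate all 3 calls held, at 1.85 for Cdk2, -1.31 for Ccne1 and -1.29 for Ccnd3.

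**Figure D2:**
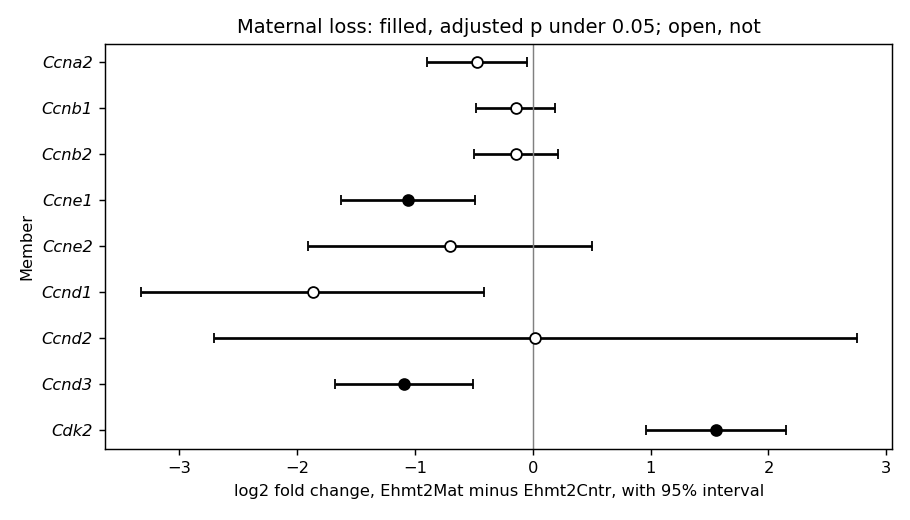
Log2 fold change (x axis, Ehmt2Mat minus Ehmt2Cntr) with its 95% interval for the 9 tested members, filled where the edgeR adjusted p was under 0.05. Cdk2 lies at 1.55 with its interval above 0, Ccne1 at -1.06 and Ccnd3 at -1.09 with theirs below 0, and the widest interval belongs to Ccnd2.

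The promoters of these 3 members are shown because they were the members that passed the main test. They run from 250 bases before to 50 bases after the RefSeq start site (GRCm38.p6), 5′ to 3′ on the strand of the gene. Capitals mark matches on either strand to 3 motifs of cell-cycle promoters, which are the E2F site (TTTCCCGC, TTTCGCGC, TTTGCCGC or TTTGGCGC), the CHR (TTTGAA or TTCGAA) and the CCAAT box (CCAAT). The promoter of Cdk2 is at chr10:128705002-128705301, that of Ccne1 at chr7:38107441-38107740 and that of Ccnd3 at chr17:47504801-47505100.
Cdk2: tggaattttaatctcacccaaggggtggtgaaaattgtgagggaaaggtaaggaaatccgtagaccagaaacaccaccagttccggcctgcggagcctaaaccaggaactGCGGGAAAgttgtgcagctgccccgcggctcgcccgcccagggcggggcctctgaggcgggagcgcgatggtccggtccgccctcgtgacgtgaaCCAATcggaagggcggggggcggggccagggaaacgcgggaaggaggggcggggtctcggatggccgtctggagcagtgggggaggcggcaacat
Ccne1: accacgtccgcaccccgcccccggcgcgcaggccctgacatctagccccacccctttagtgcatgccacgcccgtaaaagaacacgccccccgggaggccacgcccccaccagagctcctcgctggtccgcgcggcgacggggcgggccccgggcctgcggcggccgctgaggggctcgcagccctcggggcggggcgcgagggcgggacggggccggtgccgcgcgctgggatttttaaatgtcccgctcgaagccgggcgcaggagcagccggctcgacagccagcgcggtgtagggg
Ccnd3: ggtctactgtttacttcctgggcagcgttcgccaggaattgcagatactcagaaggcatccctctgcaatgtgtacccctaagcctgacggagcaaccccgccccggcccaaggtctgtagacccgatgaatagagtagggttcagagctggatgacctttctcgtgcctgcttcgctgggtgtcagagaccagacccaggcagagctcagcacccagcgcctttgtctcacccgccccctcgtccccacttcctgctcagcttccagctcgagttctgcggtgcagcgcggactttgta
Only the Cdk2 promoter has capitals. Matches had to be exact, so a site that differs from the listed letters in any base is not marked. Its E2F match, TTTCCCGC on the opposite strand, begins at -140, where the start site is 0, and its CCAAT match begins at -45. An E2F match is held by 2.26% of all 32851 promoters of this length, a CHR match by 19.2% and a CCAAT match by 37.4%. The RefSeq start site coincided with the gene start in the count tables for Cdk2 and Ccnd3 and was 44 bases from it for Ccne1. A second RefSeq promoter of Ccnd3, with its start site 88416 bases downstream, holds 1 CCAAT match. In all, 6 of the 10 members matched a promoter in the table. Ccnb1, whose reads are described with the B-type cyclins, has 2 CCAAT matches there, Ccnb2 has 3 CCAAT and 2 CHR matches, and Cdkn1b has 3 CCAAT matches. The share of G and C was 76.0% in the Ccne1 promoter, 64.7% in that of Cdk2 and 59.3% in that of Ccnd3, against a median of 52.7% over all promoters.

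Within single embryos the reads on Ccne1 and Cdk2 were set against each other. The ratio of Ccne1 to Cdk2 reads ran from 1.57 to 19.3 in controls with a median of 5.23, and from 0.216 to 2.20 in Ehmt2Mat with a median of 0.793. Only control embryo 10 at 1.57 and Ehmt2Mat embryo 10 at 2.20 overlapped. The ratio combines values already tested and was not tested again. Because the genes differ in length, it describes reads and not molecules.

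**Figure D3:**
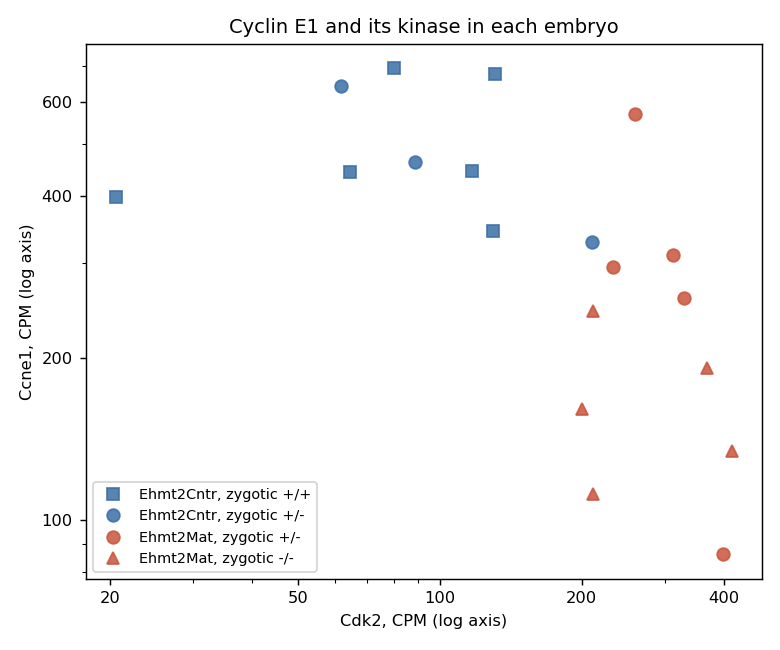
Ccne1 (y axis) against Cdk2 (x axis) in CPM on log axes, with 1 point for each embryo, coloured by group and shaped by zygotic genotype. Controls lie to the upper left and Ehmt2Mat embryos to the lower right, and the Ehmt2Mat embryo among the controls in height is embryo 10 at 570 CPM of Ccne1.

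The second E-type cyclin, Ccne2, was low and uneven. It lay between 1.58 and 88.9 CPM (median 14.0) in controls and between 3.76 and 31.8 CPM (median 19.6) in Ehmt2Mat. Control embryos 8 and 9, at 88.9 and 82.5 CPM, were above all others, and the Ehmt2Mat range lay inside the control range. The log2 fold change of -0.70 had a 95% interval from -1.91 to 0.50 (edgeR adjusted p = 0.521). The value was -0.07 with limma-voom, -0.05 with the embryo number as a block, -0.26 without control embryo 8 and -0.34 without control embryo 9, none of which passed. It was also as low as -0.95 among the other settings and -0.89 without control embryo 2, which did not pass either. Ccne2 shares 609 exon bases with Ints8 on the other strand and had more reads than Ints8 in only 2 of 19 embryos.

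Of the other D-type cyclins, Ccnd1 did not pass the main test. It lay between 4.23 and 26.8 CPM (median 11.5) in controls and between 0 and 12.5 CPM (median 2.83) in Ehmt2Mat. In 7 of 10 Ehmt2Mat embryos it was below every control. The log2 fold change was -1.87 ± 0.71 (SE) with a 95% interval from -3.32 to -0.41 (edgeR adjusted p = 0.0977). It passed with DESeq2 at -1.84 (adjusted p = 0.0336), with limma-voom at -2.85 (adjusted p = 0.0199) and without Ehmt2Mat embryo 2, the highest of its group, at -2.31 (edgeR adjusted p = 0.0485). With the number of detected genes as a covariate it was -2.77 and did not pass (edgeR adjusted p = 0.0939). Its last 818 exon bases are shared with LTO1 on the other strand, and its reads exceeded those of LTO1 in 1 of 19 embryos. LTO1 had a log2 fold change of 0.26 (edgeR adjusted p = 0.622).

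Ccnd2 was near the floor. Reads were found in 4 of 9 controls, with a highest value of 11.4 CPM from 190 reads in control embryo 3, and in 9 of 10 Ehmt2Mat embryos, with a highest value of 6.30 CPM. The median was 0 CPM in controls and 1.06 CPM in Ehmt2Mat. The log2 fold change was 0.02 with a 95% interval from -2.71 to 2.75 (edgeR adjusted p = 0.995). Most control reads lay in embryos 3 and 10, with 190 and 98 reads, and without control embryo 3 the log2 fold change was 1.81 (edgeR adjusted p = 0.479).

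Ccna2, the gene of cyclin A2, was the most abundant member in both groups. It lay between 932 and 1647 CPM (median 1288) in controls and between 540 and 1646 CPM (median 791) in Ehmt2Mat. Of the Ehmt2Mat embryos 6 were below every control, while embryos 9 and 10 were among the controls at 1646 and 1399 CPM. The log2 fold change was -0.47 ± 0.20 (SE) with a 95% interval from -0.89 to -0.05, and it did not pass after adjustment (edgeR adjusted p = 0.160). Ccna2 shares 510 exon bases with Exosc9 on the other strand and had more reads than Exosc9 in all 19 embryos. With every Exosc9 read subtracted, an alternative chosen after seeing the data, the log2 fold change was -0.50 (edgeR adjusted p = 0.204).

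The B-type cyclins of mitosis differed by less than the spread between embryos. Ccnb1 lay between 465 and 1222 CPM in controls and between 560 and 991 CPM in Ehmt2Mat, with medians of 777 and 771 and a log2 fold change of -0.15, with a 95% interval from -0.48 to 0.19 (edgeR adjusted p = 0.655). Ccnb2 lay between 86.9 and 155 CPM in controls and between 72.6 and 156 CPM in Ehmt2Mat, with medians of 122 and 120 and a log2 fold change of -0.14, with a 95% interval from -0.50 to 0.22 (edgeR adjusted p = 0.694). The groups overlapped over most of their range for both genes. For Ccnb1, 23.4% of the windows of 50 bases in its transcripts also occur in other genes, Ccnb1-ps among them. Whether reads from such windows were counted or had already been dropped at alignment is not known here, so its level is uncertain.

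Cdkn1b was the only member that did not pass the filter on low counts. It had a count in 1 of 9 controls, with 23 reads or 0.732 CPM in embryo 10, and in 6 of 10 Ehmt2Mat embryos, with at most 6 reads or 0.727 CPM. Most embryos were therefore at or below the value of 3 counts, and a difference between the groups was not detectable at this depth.

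Per kilobase of exon the order of the members can be compared. By median RPKM (CPM per kilobase of exon), the control order was Ccna2 at 316, Ccnb1 at 184, Ccne1 at 168, Ccnb2 at 78.9, Cdk2 at 36.4, Ccnd3 at 9.43, Ccne2 at 4.01 and Ccnd1 at 3.01, with Ccnd2 and Cdkn1b at 0. Ccne1 and Ccnb2 were the only neighbours in that order whose ranges over embryos did not overlap, with Ccne1 higher in 9 of 9 controls. In Ehmt2Mat the order was Ccna2 at 194, Ccnb1 at 183, Cdk2 at 117, Ccne1 at 81.96, Ccnb2 at 77.6, Ccne2 at 5.62, Ccnd3 at 3.86, Ccnd1 at 0.739, Ccnd2 at 0.113 and Cdkn1b at 0.013. There the only gap without overlap was between Ccnb2 and Ccne2. Cdk2 stood below Ccne1 and Ccnb2 at the median in controls and above both in Ehmt2Mat, where Cdk2 exceeded Ccne1 in 7 of 10 embryos. Ccne2 and Ccnd3 change places in the Ehmt2Mat order when CPM are used. Reads were biased towards the 3′ end of transcripts by the amplification, which weakens any level per length.

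The zygotic copy of Ehmt2 was examined within Ehmt2Mat. No member passed the test between the 5 -/- and the 5 +/- embryos, and neither did any of 12195 tested genes in edgeR (0%). An unadjusted p under 0.05 was found for 270 of all tested genes (2.21%) and for 2 of the 9 tested members (22.2%). Ccne1 was at 161, 192, 134, 244 and 112 CPM in the -/- embryos and at 311, 86.1, 296, 258 and 570 CPM in the +/- embryos. The -/- values all lay inside the +/- range, and the log2 fold change, -/- minus +/-, was -0.85 with a 95% interval from -1.68 to -0.03 (edgeR adjusted p = 0.9997). Cdk2 was at 200, 369, 416, 211 and 212 CPM in the -/- embryos and at 312, 399, 233, 330 and 259 CPM in the +/- embryos. Its log2 fold change was -0.12 with a 95% interval from -0.68 to 0.44 (edgeR adjusted p = 0.9997). Ccnb2, with an unadjusted p under 0.05 as well, was 133 ± 16.2 CPM (SD, n = 5) in -/- and 93.7 ± 19.6 CPM (SD, n = 5) in +/- embryos, a log2 fold change of 0.50 with a 95% interval from 0.02 to 0.99 (edgeR adjusted p = 0.9997).

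Maternal loss was also compared at the same zygotic genotype, +/-, in 5 Ehmt2Mat and 3 Ehmt2Cntr embryos. In this small fit edgeR called 1 of 13401 genes (0.00746%) and no member, while 906 genes (6.76%) and 2 members, Cdk2 and Ccna2, had an unadjusted p under 0.05. Cdk2 was at 61.8, 88.6 and 210 CPM in the 3 controls, all below the 5 Ehmt2Mat embryos, of which the lowest was at 233 CPM. Its log2 fold change was 1.32 with a 95% interval from 0.44 to 2.20 (edgeR adjusted p = 0.629). Ccna2 had a log2 fold change of -0.75 with a 95% interval from -1.40 to -0.09 (edgeR adjusted p = 0.683), and Ccnd3 one of -0.80 with a 95% interval from -1.71 to 0.10 (edgeR adjusted p = 0.801). Ccne1 was at 642, 464 and 329 CPM in the controls, with a log2 fold change of -0.66 and a 95% interval from -1.65 to 0.32 (edgeR adjusted p = 0.914). The embryos of this fit are part of the comparison of all 19. DESeq2 also called no member in either of these subgroup comparisons.

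A wider list of 55 other genes of interphase and mitotic control, of which 49 were tested, held 3 that passed, 2 higher and 1 lower. This is 6.12% of the 49, against 9.35% of all tested genes. The count depended on the method, and the order of the shares turned with it. DESeq2 called 9 of 48 (18.8%) against 16.3% of all genes, limma-voom 6 of 49 (12.2%) against 11.3%, the fit with sex as a covariate 6 of 49 (12.2%) against 9.94%, and the fit with at least 10 counts in every embryo 8 of 36 (22.2%) against 19.2%. The list median was -0.16 on the log2 scale, and 14 of the 49 (28.6%) had an unadjusted p under 0.05, against 2734 of all 11754 tested genes (23.3%). Higher were 2 of the 9 tested genes of cyclin and inhibitor turnover. Lower was 1 of the 18 tested pocket protein, E2F and DREAM genes. None passed among 6 genes of other kinases and their subunits, 5 other cyclins, 5 other inhibitors and 6 genes that switch CDK phosphorylation.

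Cdc20 activates the anaphase-promoting complex, which marks B-type cyclins for destruction. It lay between 241 and 751 CPM (median 478) in controls and between 692 and 1738 CPM (median 1099) in Ehmt2Mat. In 8 of 10 Ehmt2Mat embryos it was above every control, and the log2 fold change was 1.21 ± 0.20 (SE) (edgeR adjusted p = 9.2e-04). Ambra1, a substrate receptor of a cullin ubiquitin ligase that targets D-type cyclins, lay between 5.15 and 25.1 CPM in controls and between 20.6 and 64.5 CPM in Ehmt2Mat, with a log2 fold change of 1.56 ± 0.29 (SE) (edgeR adjusted p = 0.00196). In 9 of 10 Ehmt2Mat embryos Ambra1 was above every control.

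E2f6, an E2F without an activation domain that acts as a repressor, lay between 12.6 and 54.2 CPM (median 37.1) in controls and between 2.05 and 31.7 CPM (median 9.48) in Ehmt2Mat. All 10 Ehmt2Mat embryos were below the control median, 7 of them below every control. The log2 fold change was -1.50 ± 0.43 (SE) (edgeR adjusted p = 0.0287), and the call was lost without control embryo 1, control embryo 8 or Ehmt2Mat embryo 4, at an adjusted p of at most 0.0519, and with the number of detected genes as a covariate, at -1.89 (edgeR adjusted p = 0.0828).

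The kinases that bind the other cyclins did not pass. Cdk4, the partner of D-type cyclins, averaged 285 ± 82.3 CPM (SD, n = 9) in controls against 192 ± 62.7 CPM (SD, n = 10) in Ehmt2Mat, with a log2 fold change of -0.57 and a 95% interval from -0.99 to -0.15 (edgeR adjusted p = 0.0754). It passed with sex as a covariate at -0.72 (edgeR adjusted p = 0.0318), with at least 10 counts in every embryo (edgeR adjusted p = 0.0494) and without Ehmt2Mat embryo 3 (edgeR adjusted p = 0.0330). Cdk1, the partner of B-type cyclins, was 415 ± 102 CPM (SD, n = 9) and 327 ± 77.7 CPM (SD, n = 10), with a log2 fold change of -0.35 (edgeR adjusted p = 0.232). Cdk6 did not pass the filter, with at most 2.35 CPM in any embryo. Cdkn1a, the gene of the inhibitor p21, was 54.0 ± 52.0 CPM (SD, n = 9) and 59.3 ± 20.7 CPM (SD, n = 10), with a log2 fold change of 0.14 (edgeR adjusted p = 0.891).

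**Figure D4:**
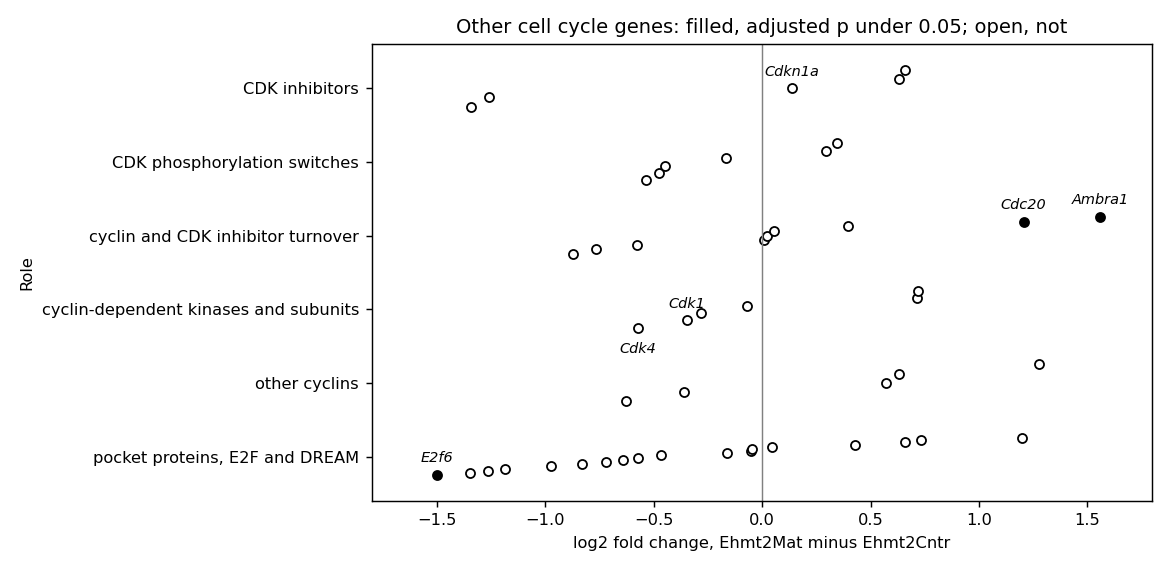
Log2 fold change (x axis, Ehmt2Mat minus Ehmt2Cntr) of the 49 tested genes of the wider list, in rows by role and filled where the edgeR adjusted p was under 0.05. Cdc20 at 1.21 and Ambra1 at 1.56 are filled to the right of 0 and E2f6 at -1.50 to the left.

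For each called member the 2 genes with the most similar pattern were taken, by Pearson's r of log2 CPM over the 19 embryos after the group means were removed. All points share their libraries, so these values are descriptions. They were Ost4 (r = 0.881) and Rnf181 (r = 0.835) for Cdk2, Nras (r = 0.860) and Stt3b (r = 0.835) for Ccne1, and Gnb1 (r = 0.754) and Rpp25 (r = 0.748) for Ccnd3. Between groups, Gnb1 fell in Ehmt2Mat with a log2 fold change of -1.83 (edgeR adjusted p = 3.3e-04). The other 5 did not pass, with log2 fold changes from -0.44 for Nras to 1.45 for Ost4.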

How the data were processed

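RNA of 19 single 8C embryos was amplified with a bias towards the 3′ end and sequenced as single-end reads of 50 bp. The authors deposited raw read counts per Ensembl gene for each embryo, without normalization, and per the file headers the counts came from featureCounts 1.5.0 on exons of Ensembl release 82 (GRCm38). A read needed 10 bases of overlap and counted for every gene it met, and no strand setting is named. The counting step kept multi-mapping reads, but the alignment before it may already have dropped them. For transposable elements, the study's methods describe featureCounts on reads that mapped uniquely. The submitters' processing notes name TopHat2, featureCounts and DESeq2, and the aligner is not named in the headers. The labels give a HiSeq1500 as the sequencer and the study's methods name another model. Reads of antisense neighbours cannot be told apart in these counts.

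From these counts, edgeR 4.0.16 (R 4.3.3) was run on the 11754 genes left by filterByExpr. Libraries were scaled by TMM, genes were tested by quasi-likelihood, and p-values were adjusted over all tested genes by the Benjamini-Hochberg method, with a threshold of 0.05. CPM used TMM-scaled library sizes. Fits compared Ehmt2Mat with Ehmt2Cntr, -/- with +/- embryos within Ehmt2Mat, and the groups at zygotic +/-, without covariates. All p-values are two-sided. The scripts were tested on simulated data. Alternatives used RLE and upper-quartile scaling, other filters, DESeq2 1.42.0, limma-voom (limma 3.58.1), a replicate block, sex (male above 1 CPM of Y-linked genes) or the number of detected genes as a covariate, thinned counts and each embryo left out. The members and lists were chosen with earlier results of these data known. Genes were named by a rule: all members, Ehmt2, every gene of the wider list past the threshold, Cdk1, Cdk4, Cdk6 and Cdkn1a, and 2 genes of similar pattern for each called member. Genes that overlap a member, and marker genes, are named beside the results they bear on.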

Additional observations from a re-analysis of the deposited data

Results flagged for a closer look

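In the control group Cdkn1b was 0.732 CPM in embryo 10 and 0 in the other controls, so that this embryo stood apart by Dixon's test. With the other 8 controls tied at 0, any count in a single embryo gives that outcome whatever its size. The value rests on 23 reads. The same embryo had the most genes with a count and the highest Cdk2 among the controls. It was the only embryo found in 20 such tests, 1 for each member and group, and chance gives about 1 in 20.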

How the results depend on the processing

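The calls of Cdk2, Ccne1 and Ccnd3 held with RLE and upper-quartile scaling, without a filter, with at least 10 counts in every embryo, with DESeq2, limma-voom, the replicate block, sex as a covariate and thinned counts, and without any single embryo. None of these settings separates the reads of Ccnd3 from those of Bysl, so they do not test that limit of the Ccnd3 call. With the number of detected genes as a covariate the members called went from 3 to 1 and all genes called to 382. Members called ranged from 3 to 4, all genes called from 884 to 1262 and wider-list calls from 2 to 5 with 1 embryo left out, the last reaching 5 without control embryo 10 or Ehmt2Mat embryo 3, 7 or 10. DESeq2 called 1771 genes. Wider-list calls were 8 with at least 10 counts in every embryo, 9 with DESeq2, 6 with limma-voom and 6 with sex as a covariate. The subgroup fits called 0 members in every alternative. The causes were not tested.

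The embryo numbers did not pair the groups: the correlation of deviations within the 9 pairs ran from -0.156 to 0.0856. With the replicate block 693 genes were called, and 3 members, with Cdk2 at 1.68, Ccne1 at -1.22 and Ccnd3 at -1.20.

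Ccnd2 turned to -0.41 with the detected genes as a covariate, to between -0.15 and -0.08 without control embryo 1, 2, 5, 6, 7, 8 or 9 (-0.14, -0.14, -0.08, -0.13, -0.15, -0.15 and -0.14), to 1.81 without control embryo 3, and was 6.00 with sex as a covariate (edgeR adjusted p = 0.0759). Cdkn1a was -0.0072 without control embryo 7 and at most 0.58 with 1 embryo left out, without control embryo 1. Subtracting overlapping reads left too few counts to fit Ccnd1, Ccnd3 and Ccne2. Cdkn1b had at most 23 reads in any embryo, and depth limits what can be said of it.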

Other observations

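The ratio of Ccna2 to Cdk2 reads within an embryo was 6.14 to 52.0 in controls (median 11.6) and 1.63 to 7.78 in Ehmt2Mat (median 2.86). The ratio of Ccnd3 to Cdk4 reads was 0.143 to 0.429 in controls (median 0.348) and 0.0983 to 0.627 in Ehmt2Mat (median 0.162). The ratio of Ccnb1 to Cdk1 reads was 1.58 to 2.64 in controls (median 1.95) and 1.60 to 3.91 in Ehmt2Mat (median 2.37). These ratios combine genes described before and were not tested.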
